A study of Mus musculus with 6 samples.

Results

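GABA, the main inhibitory transmitter of the brain, is made, packed, taken back and broken down by a small set of proteins, and 6 genes of that set were followed here by symbol among the 22095 genes of the deposited count table. Gad1 and Gad2 encode the glutamate decarboxylases GAD67 and GAD65, Slc32a1 the transporter that loads GABA into synaptic vesicles, Slc6a11 and Slc6a13 plasma membrane GABA transporters, and Abat the transaminase that starts GABA breakdown. All 6 genes were found and all 6 passed the filter on low counts. They were measured by sequencing of polyadenylated RNA from whole olfactory bulbs of 3 ICR mice, an outbred stock. A silica gel plug was put into a naris at postnatal day 30 and the bulbs were taken 60 days later, with the left naris as the plugged side per the series title. The left bulb, on the plugged side, gave 3 libraries, and the right bulb of the same mice, on the open side, gave the other 3. The mice are numbered 1037, 1038 and 1039. The sources used here do not give the sex of the mice. No mouse without a plug was measured, so a difference between sides that exists without a plug cannot be told apart from one that follows it.

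Most neurons of the olfactory bulb are GABAergic, chiefly granule cells and periglomerular cells that inhibit mitral and tufted cells. GAD67 supplies much of the cell's GABA, while GAD65 is concentrated at nerve endings. Released GABA is cleared by transporters of the SLC6 family on neurons and glia, and both decarboxylases and the transaminase need pyridoxal phosphate as cofactor. The naris plug lowers sensory input to the bulb on its side, and levels of GABA enzymes in the bulb are known to depend on that input.

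The stretches before the transcription start are shown for the 3 genes of synthesis and vesicle loading, which all fell on the plugged side, and for Slc6a11, which did not pass the test. They come from RefSeq windows of 250 bases before a start on GRCm38.p6, plus strand, without bases that lie in annotated exons of that strand. Of the 6 genes 5 had a window, and none is shown for Abat. Capitals mark GGGCGG (the GC box) and TATAAA (the TATA box) on either strand.
Gad1 (chr2:70561879-70562041): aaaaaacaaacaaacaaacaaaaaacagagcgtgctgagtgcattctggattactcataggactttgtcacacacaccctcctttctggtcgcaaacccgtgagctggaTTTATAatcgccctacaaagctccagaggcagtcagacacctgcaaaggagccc
Gad2 (chr2:22622077-22622204): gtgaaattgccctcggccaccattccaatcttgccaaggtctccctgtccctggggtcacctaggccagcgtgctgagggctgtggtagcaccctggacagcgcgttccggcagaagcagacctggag
Slc32a1 (chr2:158610508-158610757): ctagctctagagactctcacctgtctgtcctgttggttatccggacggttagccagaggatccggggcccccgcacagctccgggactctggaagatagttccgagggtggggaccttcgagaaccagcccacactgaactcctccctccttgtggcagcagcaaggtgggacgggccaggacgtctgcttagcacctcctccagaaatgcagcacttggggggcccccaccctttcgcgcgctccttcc
Slc6a11 (chr6:114130991-114131240): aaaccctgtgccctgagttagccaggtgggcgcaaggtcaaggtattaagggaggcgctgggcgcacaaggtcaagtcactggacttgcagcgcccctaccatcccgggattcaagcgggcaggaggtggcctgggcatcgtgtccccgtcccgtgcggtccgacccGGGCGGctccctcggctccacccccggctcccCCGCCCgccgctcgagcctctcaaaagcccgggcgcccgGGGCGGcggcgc
Over the whole windows, the search covered both strands for TGACG (found in the cAMP response element), TAATTA (a homeodomain core), CANNTG (the E-box), GGGCGG and TATAAA. These motifs do not share letters in a way that makes one contain another, and shares are over all 32851 windows of this length. Gad2 held TGACG once, 33 bases before its RefSeq start, a motif found in 17.8% of windows. None of the windows of Gad1, Slc32a1 and Slc6a11 held it. This TGACG and the CANNTG of Gad2, 76 bases before the same start, lie past the annotated gene start at 22622205. The stretch shown above therefore leaves both out. Gad1 held TATAAA once (12.4% of windows), 141 bases before the RefSeq start, on the minus strand (TTTATA as printed). It held GGGCGG once (32.7%), 8 bases before that start, in an exon. Its window lies within the annotated span of Gad1, which begins at 70553072. Slc6a11 held GGGCGG at 3 places, and Slc32a1 and Gad2 held neither GGGCGG nor TATAAA. The E-box CANNTG stood in each of these 4 windows and in 66.2% of all windows, and TAATTA in none of the 4 and in 4.84% of all. Of the motifs searched, none was shared by Gad1, Gad2 and Slc32a1 other than CANNTG.

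The library labelled left 1038 went against its label and is given apart. Dlx1, a transcription factor of bulb interneurons, stood there at 0.618 CPM (counts per 1000000 counts of the library) against 304 to 358 CPM in the other 5 libraries. Cbln3, Gabra6 and Fat2, genes of cerebellar granule cells, reached 1217, 896 and 1054 CPM there, and none of them exceeded 1.26 CPM in any bulb library. The comparison of sides therefore rests on 5 bulb libraries, left 1037 and left 1039 against right 1037, right 1038 and right 1039, with the result of all 6 libraries beside it. Library totals were 14571453 to 15590938 counts, and the limit that a count of 0 allows, 3 counts, was 0.192 to 0.206 CPM, for counting error only.

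The genes that make and load GABA were lower on the plugged side, as was the gene that starts its breakdown. The 2 membrane transporter genes of the set, Slc6a11 and Slc6a13, did not pass the test. Of the 6 genes 4 fell and 0 rose in edgeR's quasi-likelihood test at an adjusted p under 0.05, where 9.62% of the 14412 genes tested passed, 6.46% lower and 3.16% higher. The median log2 fold change (left over right) of the 6 was -0.43, and that of all genes tested was 0.0049. In CPM the left and right libraries did not overlap for 5 of the 6 genes, as for 46.4% of all genes tested. For 4 of them the left libraries were the lower ones, as for 13.2% of all genes, and for Slc6a13 the higher ones, as for 33.2%. In bulk RNA fewer cells of a type and less RNA per cell cannot be told apart.

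**Figure D1:**
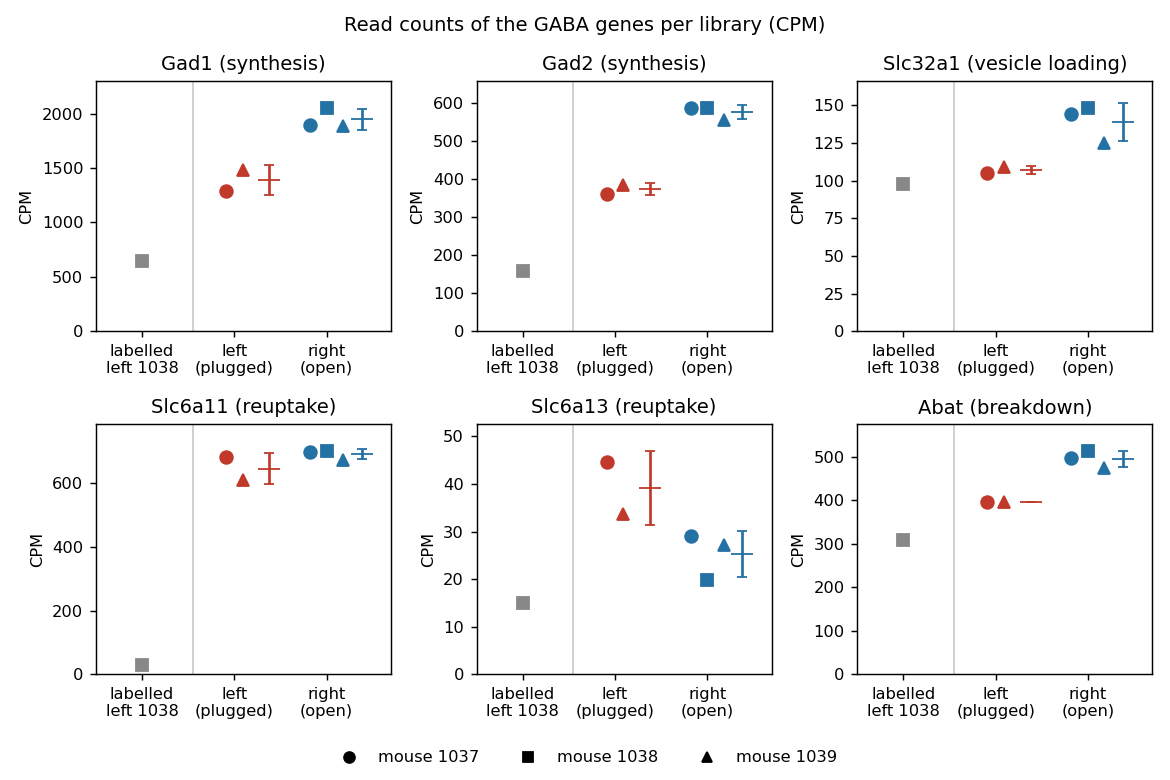
CPM of the 6 genes in each library, with the library labelled left 1038 in grey, left (plugged side) libraries in red and right (open side) libraries in blue. Symbols give the mouse, and the bars beside the points give mean and SD (n = 2 left and n = 3 right). Both left points lie below all right points for Gad1, Gad2, Slc32a1 and Abat, and above them for Slc6a13.

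Gad1 (ENSMUSG00000070880, chromosome 2, 70553072 to 70602014 on GRCm38, plus strand) had 1293 and 1485 CPM in left 1037 and left 1039. In right 1037, right 1038 and right 1039 it had 1899, 2052 and 1886 CPM. Both left bulbs were below every right bulb. The 2 left bulbs averaged 1389 ± 136 CPM and the 3 right bulbs 1946 ± 92.7 CPM (mean ± SD). After TMM scaling, which the CPM values do not include, Gad1 fell to 67.4% of the right level, a log2 fold change of -0.57 (SE 0.076, adjusted p = 0.00237). Within mouse 1037 the log2 difference in CPM, left over right, was -0.56, and within mouse 1039 it was -0.34.

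Gad2 (ENSMUSG00000026787, chromosome 2, 22622205 to 22693874, plus strand) showed the largest fall of the 6 genes. It had 362 and 386 CPM in left 1037 and left 1039, against 588, 587 and 557 CPM in right 1037, right 1038 and right 1039. The libraries of each side lay close together, and the sides were well apart. Gad2 fell to 61.2% of the right level after TMM scaling, a log2 fold change of -0.71 (SE 0.061, adjusted p = 4.35e-04). By its p it ranked 17 among the 14412 genes tested, although 204 of the 931 genes that fell had a larger fall.

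Slc32a1 (ENSMUSG00000037771, chromosome 2, 158610767 to 158615748, plus strand) had 105 and 109 CPM in left 1037 and left 1039, against 144, 148 and 125 CPM in right 1037, right 1038 and right 1039. Right 1039 was the closest to the left libraries, without reaching them. The gene fell by 0.46 on the log2 scale (SE 0.081, adjusted p = 0.00768). Within mouse 1037 the log2 difference in CPM was -0.46, and within mouse 1039 it was -0.19. The sources used here do not say whether reads were counted by strand. The spans of Gad1 and Slc32a1 overlap the antisense genes Gad1os and Gm14205, neither of which has a row in the table, so reads of these RNAs, if any, cannot be separated from those of Gad1 and Slc32a1.

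Abat (ENSMUSG00000057880, chromosome 16, 8513429 to 8621568, plus strand) had 397 CPM in left 1037 and 397 CPM in left 1039. In right 1037, right 1038 and right 1039 it had 497, 513 and 475 CPM, so the sides did not overlap. Abat fell to 75.7% of the right level after TMM scaling, a log2 fold change of -0.40 (SE 0.060, adjusted p = 0.00367). Leaving out any 1 of the 3 right libraries kept the adjusted p of Gad1, Gad2, Slc32a1 and Abat at or below 0.0367. Leaving out left 1037 or left 1039 leaves 1 left library, so those fits give an effect size only. In them each of these genes stayed lower on the left.

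Slc6a11 encodes GAT-3 (in the rat and human naming), a GABA transporter found mainly on astrocytes. The gene (ENSMUSG00000030307, chromosome 6, 114131241 to 114249952, plus strand) had 679 and 609 CPM in left 1037 and left 1039, against 696, 699 and 671 CPM in right 1037, right 1038 and right 1039. Left 1037 lay within the range of the right libraries and left 1039 below it. The log2 fold change was -0.18 (SE 0.066, adjusted p = 0.127), which did not pass. Without left 1037 it was -0.26 and passed (adjusted p = 0.0392).

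Slc6a13 encodes GAT-2, a GABA and taurine transporter known in mouse brain from the meninges and vessels. The gene (ENSMUSG00000030108, chromosome 6, 121300227 to 121337733, plus strand) had 44.6 and 33.7 CPM in left 1037 and left 1039, against 29.0, 19.8 and 27.1 CPM in right 1037, right 1038 and right 1039. Both left libraries were above all right libraries, with left 1037 the highest and right 1038 the lowest. The log2 fold change was 0.55 (SE 0.16, adjusted p = 0.0678) and did not pass. With the mouse as a block, right 1038 has no partner. There the log2 fold change was 0.39 and passed in edgeR (adjusted p = 0.0308) but not in DESeq2 (adjusted p = 0.497). It also passed when scaled by total library size (0.63, adjusted p = 0.0382) and in DESeq2 without the block (adjusted p = 0.0165). Without left 1039, which leaves 1 left library, it was 0.75. Of 12 markers of meningeal and perivascular fibroblasts, 1 rose and 0 fell, where 3.16% of all genes tested rose and 6.46% fell. Their summed level, without TMM factors, was 672 and 517 CPM in left 1037 and left 1039. In right 1037, right 1038 and right 1039 it was 431, 538 and 476 CPM. None of them was at 0 in the 5 libraries, and their part in the value of Slc6a13 was not tested.

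The levels of the genes can be ordered only per length, here as CPM per kilobase of annotated exons (CPM per kb). On the left, Gad1 averaged 182 CPM per kb, Slc6a11 128, Gad2 63.7, Abat 51.2, Slc32a1 38.3 and Slc6a13 13.5 CPM per kb. On the right, Gad1 averaged 255 CPM per kb, Slc6a11 136, Gad2 98.2, Abat 63.9, Slc32a1 49.7 and Slc6a13 8.71 CPM per kb. The order of the 6 genes was the same on both sides. Gad2 stood at 61.7 and 65.6 CPM per kb in left 1037 and left 1039, against 94.8 to 100.1 CPM per kb in the right libraries. No neighbours in either order overlapped between genes within a side. Exons that the bulb does not use lower such a value, so the order depends on the annotation. The sources used here do not state whether reads in introns were counted. Such reads, if counted, would raise the value of a gene with long introns.

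Ratios between the genes within a library do not depend on how libraries are scaled. The ratio of Gad2 to Gad1 counts was 0.280 and 0.260 in left 1037 and left 1039, against 0.310, 0.286 and 0.295 in right 1037, right 1038 and right 1039. Both left ratios lay below all right ratios. The ratio of Abat to Gad1 was 0.307 and 0.267 in left 1037 and left 1039, against 0.262, 0.250 and 0.252 in the right libraries, with both left ratios above. The ratio of Slc32a1 to Gad1 was 0.0814 and 0.0735 on the left, against 0.0760, 0.0723 and 0.0661 on the right, and overlapped. The exact two-sided permutation test gave p = 0.2 for the first ratio, p = 0.2 for the second and p = 0.4 for the third (adjusted over the 3 ratios p = 0.3, 0.3 and 0.4). With 2 against 3 libraries the smallest p this test can give is 0.2, so it cannot pass 0.05.

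**Figure D2:**
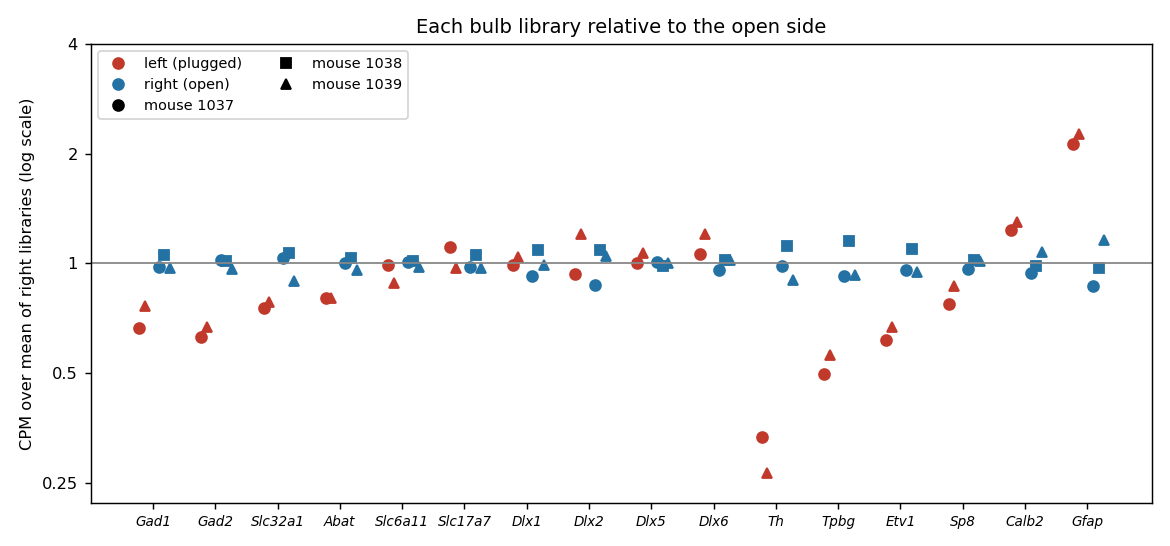
CPM of each bulb library over the mean of the 3 right libraries, on a log scale. Shown are Gad1, Gad2, Slc32a1, Abat, Slc6a11, Slc17a7, Dlx1, Dlx2, Dlx5, Dlx6, the interneuron markers that passed the test, and Gfap. Slc6a13, whose left libraries lay above all right libraries, is not shown. Left (plugged side) points are red, right (open side) points blue, and symbols give the mouse. The left points of Gad1, Gad2, Slc32a1 and Abat lie below those of the right, as do those of Th, Tpbg, Etv1 and Sp8. Those of the Dlx genes lie around or above 1. The Dlx genes were chosen after their values were seen, and CPM does not include the TMM factors.

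Of 17 markers of bulb interneurons, 4 fell and 1 rose, where 6.46% of all genes tested fell and 3.16% rose. Their median log2 fold change was -0.03, and their summed level was 3007 to 3468 CPM on the left and 3110 to 3362 CPM on the right. Those that fell were Th, which encodes tyrosine hydroxylase of dopaminergic periglomerular cells (-1.82, adjusted p = 8.11e-05), Tpbg (-1.001, adjusted p = 0.00164), and the transcription factors Etv1 (-0.72, adjusted p = 9.90e-04) and Sp8 (-0.37, adjusted p = 0.00870). Calb2, the calcium-binding protein calretinin, rose by 0.26 (adjusted p = 0.0364). Dlx1, Dlx2, Dlx5 and Dlx6, transcription factors that drive interneuron fate and Gad gene expression, held 465 and 507 CPM in sum in left 1037 and left 1039, against 436, 504 and 471 CPM in right 1037, right 1038 and right 1039, and overlapped. Relative to that sum, Gad1 counts stood at 2.78 and 2.93 on the left, against 4.36, 4.07 and 4.01 on the right. Gad2 counts stood at 0.779 and 0.761 on the left, against 1.17 to 1.35 on the right. These ratios depend on the choice of the 4 Dlx genes, which were taken from the list after their values were seen, while 4 others of the list fell. Of 12 astrocyte markers, 3 rose and 2 fell, with a summed level of 4361 to 4502 CPM on the left and 3826 to 4142 CPM on the right. The sums given here do not include the TMM factors, 1.03 and 1.04 on the left and 0.971 to 0.983 on the right. Scaling by them lowers the left sums and raises the right ones, so the gap between the astrocyte sums is not a tested difference. None of the markers in these lists was at 0 in the 5 libraries, and their part in the values of the GABA genes was not tested. The markers named here and Gfap, an intermediate filament of astrocytes, were likewise chosen for display after their values were seen.

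Counts for the remaining marker lists stand against 3.16% of all genes tested higher and 6.46% lower, and were not tested as lists. Among mitral and tufted cell markers 2 of 9 rose and 1 fell, and among microglia markers 3 of 10 rose and 0 fell. Among endothelial and mural markers 2 of 9 fell and 0 rose. None of 7 oligodendrocyte markers and none of 10 cortical and striatal markers passed in either direction. Of 10 cerebellar markers 7 had enough counts, of which 1 rose and 0 fell.

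Around the 6 genes, several genes that supply glutamate or cofactor were lower on the plugged side, and none of the list was higher. Of 21 other genes of GABA and glutamate handling, 6 fell and 0 rose, with a median log2 fold change of -0.17. Of all genes tested, 6.46% fell and 3.16% rose. Slc1a1, a neuronal glutamate transporter (EAAT3), had 133 and 138 CPM in left 1037 and left 1039, against 169, 164 and 169 CPM in right 1037, right 1038 and right 1039. It fell by 0.38 on the log2 scale (SE 0.056, adjusted p = 0.00347). Got2 and Got1, the mitochondrial and cytosolic aspartate transaminases that move amino groups between aspartate and glutamate, fell by 0.39 (adjusted p = 0.00770) and 0.28 (adjusted p = 0.0130). Pdxk, the kinase that makes pyridoxal phosphate, fell by 0.28 (SE 0.060, adjusted p = 0.0178). Slc38a1, a glutamine transporter of neurons, fell by 0.35 (SE 0.084, adjusted p = 0.0306), and Slc1a4, a neutral amino acid transporter, fell by 0.40 (SE 0.11, adjusted p = 0.04995). The count of 6 became 3 when right 1037 or right 1038 was left out. It was 3 when scaled by total library size and 3 in DESeq2 with the mouse as a block. It was 7 with no filter on low counts, 8 in DESeq2 without the block and 8 in edgeR with the block. The calls of Got1, Pdxk, Slc38a1 and Slc1a4 each ended in at least 1 leave-out of a right library (adjusted p up to 0.0613, 0.0735, 0.116 and 0.118). Those of Slc1a1 and Got2 did not.

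Other genes of the same list did not pass. Slc6a12, the betaine and GABA transporter BGT1, averaged 4.98 CPM on the left and 4.41 CPM on the right, with a log2 fold change of 0.10 (SE 0.24, adjusted p = 0.846). Aldh5a1, which completes GABA breakdown after Abat, had -0.17 (SE 0.064, adjusted p = 0.141), and passed in edgeR once the mouse was added as a block (adjusted p = 0.0451) but not in DESeq2 with the block (adjusted p = 0.491). Glul, the glutamine synthetase of astrocytes, had 0.022 (SE 0.073, adjusted p = 0.890).

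**Figure D3:**
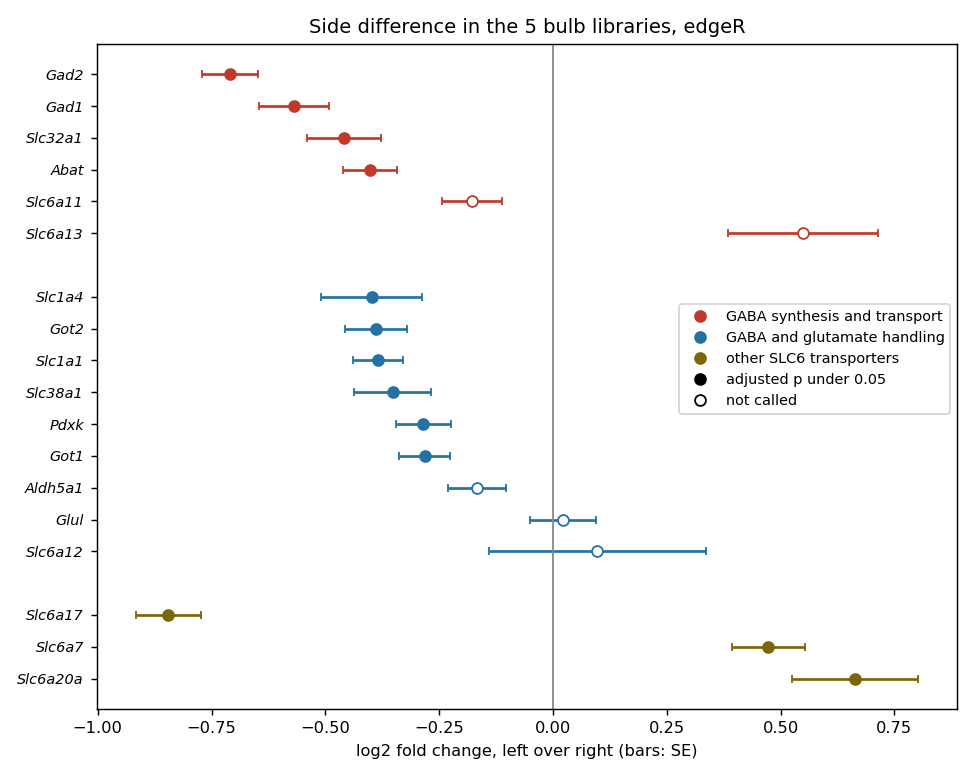
Log2 fold change (left over right) with its SE for the 6 genes and for the other genes of GABA and glutamate handling and SLC6 transporters named in the text, in the 5 bulb libraries. Filled points passed at an adjusted p under 0.05. Gad2, Gad1, Slc32a1 and Abat stand between -0.71 and -0.40, while Glul stands at 0.022.

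The list of 17 other transporters of the SLC6 family, to which Slc6a11 and Slc6a13 belong, also holds Slc6a12. Of these 17, 12 had enough counts, of which 2 rose and 1 fell (median log2 fold change 0.044). Of all genes tested, 3.16% rose and 6.46% fell. Slc6a17, a neutral amino acid transporter of synaptic vesicles, had 309 and 312 CPM in left 1037 and left 1039, against 542, 554 and 485 CPM in right 1037, right 1038 and right 1039. The sides were far apart, and the gene fell by 0.85 (SE 0.071, adjusted p = 3.61e-04). Slc6a7, the brain proline transporter, had 104 and 107 CPM in left 1037 and left 1039, against 67.9, 67.4 and 80.3 CPM in right 1037, right 1038 and right 1039. It rose by 0.47 (SE 0.080, adjusted p = 0.00655). Slc6a20a, an imino acid transporter, rose by 0.66 (SE 0.14, adjusted p = 0.0170), and by 0.49 without left 1037, which leaves 1 left library. Slc6a20b is its paralog, and how reads that match both were counted was not tested, so its value is uncertain.

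Vesicular transporters of other transmitters gave a point of comparison for Slc32a1. Of 6 such genes 3 had enough counts, and 1 fell (median log2 fold change -0.35), where 6.46% of all genes tested fell and 3.16% rose. Slc17a7, the glutamate transporter VGLUT1, averaged 609 ± 56.5 CPM in the 2 left bulbs and 586 ± 27.5 CPM in the 3 right bulbs (mean ± SD), with a log2 fold change of -0.03 (SE 0.072, adjusted p = 0.859). Slc17a6, the glutamate transporter VGLUT2, fell by 0.35 (SE 0.082, adjusted p = 0.0275). This call ended when any 1 of the 3 right libraries was left out (adjusted p up to 0.0947). The median of the 3 genes is the value of Slc17a6. The gene of the 3 not named here thus had a log2 fold change at or below it, without passing. On the receiving side stood 10 genes of GABA-B receptors, chloride transport and the inhibitory postsynapse. Of these, 1 fell and 0 rose (median log2 fold change -0.09), against the same shares of 6.46% and 3.16% of all genes tested. Gabbr1, a subunit of the GABA-B receptor, had -0.05 (SE 0.055, adjusted p = 0.609).

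The genes most like each of the 4 that fell were sought by the smallest root mean square difference of log2 CPM, each gene centred on its mean over the 5 bulb libraries, among 10485 genes averaging at least 10 CPM. For Gad1 they were Ano4, a member of the anoctamin family, Tiam1, a Rac exchange factor, and Stxbp6, a syntaxin-binding protein, at 0.0268, 0.0324 and 0.0355, where the median gene stood at 0.297. For Gad2 they were Ret, the receptor kinase for GDNF ligands, Srxn1, the sulfiredoxin, and Mef2c, a transcription factor, at 0.0242, 0.0349 and 0.0403, with a median of 0.355. For Slc32a1 they were Hivep2, Efr3a and Atp1b1, a subunit of the sodium pump, at 0.0318, 0.0320 and 0.0355, with a median of 0.250. For Abat they were Ldlrad4, Slc4a8, a bicarbonate transporter, and Cdh10, a cadherin, at 0.00631, 0.00962 and 0.0155, with a median of 0.214. Their log2 fold changes, -0.71 for Srxn1 to -0.40 for Efr3a, come from the libraries used to choose them, so their lower level on the left is largely fixed by the choice. In DESeq2 with the mouse as a block, Ret (adjusted p = 0.295), Efr3a (0.126), Ldlrad4 (0.692) and Cdh10 (0.347) did not pass. Efr3a, Ldlrad4 and Cdh10 also missed the threshold in at least 1 leave-out.

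In the library labelled left 1038 each of the 6 genes lay below all 5 bulb libraries, by very unequal amounts. Slc6a11 stood at 28.8 CPM (95% exact Poisson interval 26.1 to 31.7 CPM), against a median of 679 CPM in the bulb libraries, 23.6-fold lower. Gad1 stood at 648 CPM (635 to 662 CPM) and Gad2 at 160 CPM (153 to 166 CPM), which is 34.4% and 28.7% of the bulb medians of 1886 and 557 CPM. Slc32a1 stood at 97.8 CPM (92.8 to 103.0 CPM), Abat at 310 CPM (301 to 319 CPM) and Slc6a13 at 15.0 CPM (13.0 to 17.1 CPM), at 78.4%, 65.3% and 51.6% of the bulb medians. The ratio of Slc32a1 to Gad1 was 0.151 in this library, above each of the 5 bulb libraries. It is 1 library, so these values have no replicate check.

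With all 6 libraries as labelled, none of the 14209 genes tested was called by edgeR (0.00% of them), while 1196 lay at an unadjusted p under 0.05, among them 4 of the 6 GABA genes. DESeq2 called 186 genes and limma-voom 0. Gad1, Gad2, Slc32a1 and Abat had log2 fold changes of -0.83, -0.99, -0.47 and -0.48 (adjusted p = 0.554 for each), Slc6a11 had -0.72 (adjusted p = 0.776) and Slc6a13 had 0.24 (adjusted p = 0.825). The log2 fold change of Slc6a11 had been -0.18 without the library labelled left 1038.

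**Figure D4:**
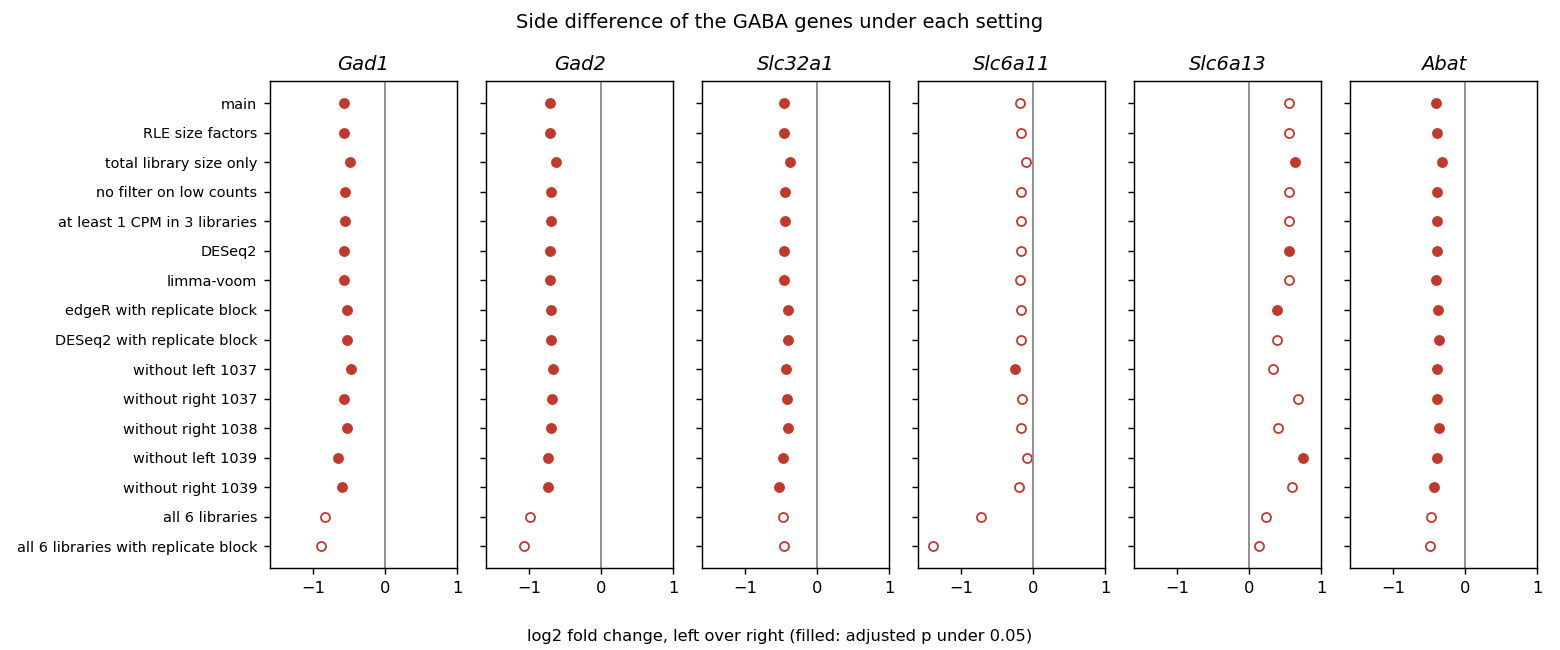
Log2 fold change (left over right) of the 6 genes in the 5 bulb libraries (top row, main) and under each other setting, with filled points for an adjusted p under 0.05. Gad1, Gad2, Slc32a1 and Abat are filled in each setting except those with all 6 libraries, and Slc6a11 and Slc6a13 are open in most.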

How the data were processed

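RNA of 6 libraries, left and right bulb of 3 mice, was grouped by side from the labels, with the mouse number as replicate. The deposited table gives a read count per gene and library, as whole numbers without normalization, per the file headers. It also gives an RPKM per gene and library, per the file headers. Recomputed from count, deposited length and library total, the RPKM differed by at most 3.6e-11. The deposited length lay within 1 base of the gene's genomic span, introns included, for 78.41% of the 21929 genes in the GENCODE M21 annotation, so the RPKM was not used. The build GRCm38 and the tools TopHat2, HTSeq 0.6.1p2, DESeq 1.18.0 and cutadapt 1.2.1 are listed in the submitters' processing notes without their roles. The sources used here do not state the counting mode. Of 22095 identifiers, 21852 matched a symbol. No pair of libraries held identical values (0 pairs).

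The sides were compared by the two-sided quasi-likelihood test of edgeR 4.0.16 (glmQLFit, glmQLFTest) under R 4.3.3, after filterByExpr and TMM scaling. Side was its single term, and p-values were adjusted by Benjamini-Hochberg across every gene that passed the filter. Each adjusted p is from this test unless another tool or setting is named. SE is the log2 fold change over the square root of its F. CPM values use library totals without TMM factors. These factors were 1.03 and 1.04 in left 1037 and left 1039, and 0.971 to 0.983 in the right libraries. CPM thus places the left libraries higher against the right ones than the scaled test does. P-values measure the spread between these libraries. Both bulbs of a mouse share its number in the labels and so are paired by design. Their deviations from the group means correlated at 0.233 in mouse 1037 and 0.248 in mouse 1039, so the test was repeated with a term for the mouse (the block). Alternatives were RLE factors, total library size, other filters, DESeq2 1.42.0, limma-voom 3.58.1, the block, leave-outs and all 6 libraries. On counts simulated for the 5 libraries (14281 genes), 66, 67 and 65 genes were changed 1.5-fold, 2-fold and 4-fold. The test recovered 59.1%, 79.1% and 98.5% of them, and 9.3% of its calls were false. The simulation had no pairing by mouse and changed a smaller share of genes than the 9.62% called in the data. These values may therefore differ in the real libraries.

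The 6 genes, the 13 gene lists and the setting apart of the library labelled left 1038 were chosen with earlier results of these data known. Named genes were the 6, up to 6 called genes per list that is not a marker list, fixed genes of the pathway and the 3 genes most alike to each called gene. Some of the genes so chosen are not reported here. Promoter windows are from RefSeq on GRCm38.p6.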

Additional observations from a re-analysis of the deposited data

How the results depend on the processing

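Gad1, Gad2, Slc32a1 and Abat kept direction and call in the 5 bulb libraries under RLE factors, total library size, both other filters, DESeq2 and limma-voom. The same held with the mouse as a replicate block in edgeR and in DESeq2, and in each leave-out of a right library. Leaving out a left library leaves 1 on that side, and there these genes kept direction. Over the leave-outs their log2 fold changes ran from -0.66 to -0.47, -0.74 to -0.66, -0.53 to -0.41 and -0.43 to -0.37. Slc6a11 ran from -0.26 to -0.090 and Slc6a13 from 0.33 to 0.75. With all 6 libraries the 4 calls ended at -0.83, -0.99, -0.47 and -0.48, and with the replicate block added at -0.90, -1.08, -0.46 and -0.49. Slc6a13 passed with total library size (0.63), DESeq2 (0.55) and the edgeR replicate block (0.39). The log2 ratio differences ran over the leave-outs from -0.19 to -0.082 for Gad2 to Gad1, 0.044 to 0.19 for Slc32a1 to Gad1 and 0.07 to 0.27 for Abat to Gad1. With all 6 libraries they were -0.18, 0.44 and 0.42.

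Genes called in the 5 libraries numbered 1387, with 660 to 1096 when a right library was left out (660 for right 1038 and 669 for right 1037). The count was 1553 with the edgeR replicate block, 432 with the DESeq2 replicate block, and 0 with all 6 libraries, with or without the block. Scaled by total library size the split was 975 higher and 589 lower, against 456 and 931, and the median of all genes was 0.087 against 0.0049. With 6 libraries the count of 0 became 186 in DESeq2, 26 in DESeq2 with the block, and 0 to 1387 in the leave-outs, 1387 without the library labelled left 1038.

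Other named genes changed sign as follows. With all 6 libraries Slc6a7 had -0.0037 (-0.37 with the block), Slc6a12 -0.064 (-0.061), Glul -0.30 (-0.41), Gabbr1 0.049 (0.043) and Ldlrad4 0.021. Scaled by total library size Slc17a7 had 0.055 and Gabbr1 0.030. Slc17a7 had 0.0081 with the edgeR block, 0.012 with the DESeq2 block, 0.014 without right 1038 and 0.076 without left 1039. Slc6a12 had -0.020 without right 1037 and Glul -0.079 without left 1037. Over the leave-outs Glul ran from -0.079 to 0.13 and Slc17a7 from -0.12 to 0.076. The cause of these changes was not tested.

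Genes of few counts, such as Slc6a12, are limited by depth, and all genes by 2 to 3 libraries a side. Genes changed 1.5-fold were missed in part in simulated data, so a gene that did not pass is not shown to be equal on both sides.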

Other observations

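In the library labelled left 1038, Slc6a5, the neuronal glycine transporter GlyT2 known from glycinergic neurons, stood at 33.8 CPM (492 counts), against 0 to 0.397 CPM in the 5 bulb libraries. Slc17a6 stood at 0.137 CPM there (2 counts), against 32.0 to 40.5 CPM in the bulb libraries, and Slc17a7 at 541 CPM against 569 to 648 CPM. These genes were chosen after their values were seen.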
